A study of Homo sapiens with 6 samples.

Results

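The genes described here are 10 transcription factors and cofactors of the erythroid lineage, named for this account the erythroid master transcription factors. They are GATA1, TAL1, KLF1, NFE2, LMO2, GFI1B, ZFPM1, LDB1, LYL1 and TCF3, chosen by name from 20163 protein-coding genes. A SMARCA4 peak was assigned to a member when it shared at least 1 bp with the GENCODE span of the gene extended by 20 kb on each side. Of the 28265 peaks on hg19, 75 (0.265%) were assigned in this way, and each lay in the window of a single member.

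Chromatin of K562, an established line derived from a chronic myelogenous leukaemia that keeps erythroid features, was crosslinked with disuccinimidyl glutarate and formaldehyde and immunoprecipitated for SMARCA4, the ATPase of SWI/SNF (BAF) chromatin remodellers. There were 3 SMARCA4 ChIP libraries and 3 input libraries from these cells, and the replicates are called technical in the design text of the record, which gives 1 input, and biological in the text of the study. The list held regions present in at least 2 of the 3 ChIP replicates, as positions without height or depth, so no spread between replicates can be given. The values are therefore descriptions, without a test, and the intervals cover counting error only, since neighbouring regions are not independent replicates.

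Red cell development rests on a small set of DNA-binding proteins that act together. GATA1, a zinc finger factor required for red cell maturation, binds GATA sites, and ZFPM1 (FOG1) is a cofactor that acts through contact with it. TAL1 and its close relative LYL1 are helix-loop-helix proteins that pair with E proteins such as TCF3 (E2A) and bind E-boxes. LMO2 and LDB1 bridge these pairs to GATA1 in a single complex, for which a CTG a short distance before a GATA site is the known composite sequence. KLF1 binds CACCC elements of globin and other red cell genes, NFE2 is the large subunit of NF-E2 that pairs with small MAF proteins, and GFI1B is a zinc finger repressor. LDB1 and TCF3 are made in many tissues and LYL1 across blood lineages, so the members are restricted to the erythroid lineage to different degrees. Expression was not measured in these files.

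A GATA site was taken as the letters GATA with A or T before them and A or G after them, on either strand, and the composite as CTG followed after 7 or 8 bases by a GATA site. Of the 22 peaks at promoters of the members' own, 9 (40.9%) held a GATA site in the central 400 bp, against 23.5% of all promoter peaks. A composite was held by 5 (22.7%), against 3.0% of all promoter peaks. The stretches below come from these 5 peaks, chosen for the composite, and are written on the plus strand of hg19, 5′ to 3′. Capitals mark the GATA sites and the CTG of each composite. A site on the minus strand appears as its reverse complement, with CAG after the GATA site. Each lies in a peak within 1 kb of a coding transcription start site (TSS) of the gene named.
GATA1 chrX:48644362-48644410: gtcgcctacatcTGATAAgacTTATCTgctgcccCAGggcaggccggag
KLF1 chr19:12998432-12998490: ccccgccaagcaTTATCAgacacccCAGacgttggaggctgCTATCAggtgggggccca
NFE2 chr12:54689617-54689724: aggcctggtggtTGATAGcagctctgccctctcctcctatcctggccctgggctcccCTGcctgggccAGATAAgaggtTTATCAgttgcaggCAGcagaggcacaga
GFI1B chr9:135853942-135853982: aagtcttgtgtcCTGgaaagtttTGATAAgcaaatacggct
LYL1 chr19:13213653-13213711: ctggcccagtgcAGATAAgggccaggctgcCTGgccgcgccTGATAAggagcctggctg

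In the GATA1 stretch the GATA sites start 9 bp apart on opposite strands. In the NFE2 stretch 2 composites face each other, with the starts of their GATA sites 11 bp apart. The KLF1 and LYL1 stretches each hold a pair of GATA sites whose starts are 29 bp apart, and in each pair 1 site belongs to a composite. A match describes the letters in the window and does not show that a factor was bound.

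All 10 members had a peak at a promoter of their own, against 46% of coding genes. All 10 also had a distal peak, one further than 1 kb from every coding TSS, against 44.3% of coding genes. With the gene span alone and no flank the count was 6 of the 10, against 22.9%, and GATA1, TAL1, KLF1 and LMO2 had none. In 9 of the 10, all but KLF1, at least 1 distal peak held a GATA site in its central 400 bp, against 35.8% of coding genes. The 35.8% also counts genes without a distal peak. Of the 8940 coding genes with a distal peak, 7217 had one with a GATA site. By comparison, 6478 coding genes (32.1%) had no peak at all in such a window. Of the 75 member peaks, 22 (29.3%) lay at a promoter of the member, 13 (17.3%) at the promoter of a neighbouring gene and 40 (53.3%) were distal. Among all peaks 41.7% were at promoters and 58.3% distal. Of the distal member peaks, 6 (15%) lay within 1 kb of a TSS of another transcript type, against 16.0% of all distal peaks.

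**Figure D1:**
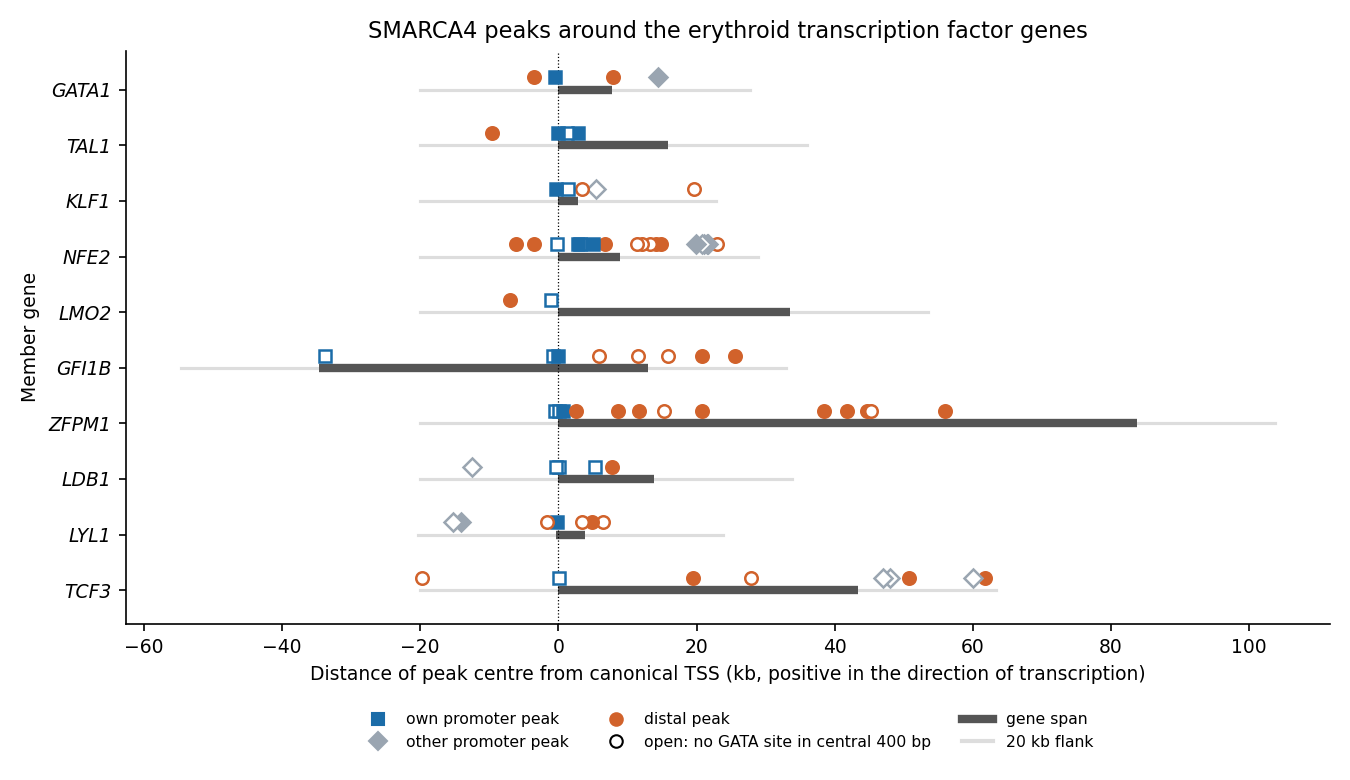
Position of the 75 SMARCA4 peaks relative to the canonical TSS of each member, in kb along the direction of transcription; symbols give the class of the peak and filled symbols a GATA site in the central 400 bp. NFE2 has 18 peaks and LMO2 has 2, and the GFI1B span reaches upstream because of an alternative start, where a peak lies 33.8 kb from the canonical TSS.

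The median member had 6 peaks, and the median coding gene 2. Window lengths differ between genes, and the members had the shorter windows, with a median of 54.9 kb against 67.2 kb. Per 10 kb of window the members had a median of 0.989 peaks, compared with 0.182 over all coding genes, and peaks covered a median of 6.0% of the window against 0.706%. The density ran from 0.272 peaks per 10 kb at LMO2 to 3.68 at NFE2, and 9 of the 10 members lay above the upper quartile of coding genes, 0.460 peaks per 10 kb. LMO2, at 2 peaks in 73.5 kb, was the exception, with 61.3% of coding genes below it.

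**Figure D2:**
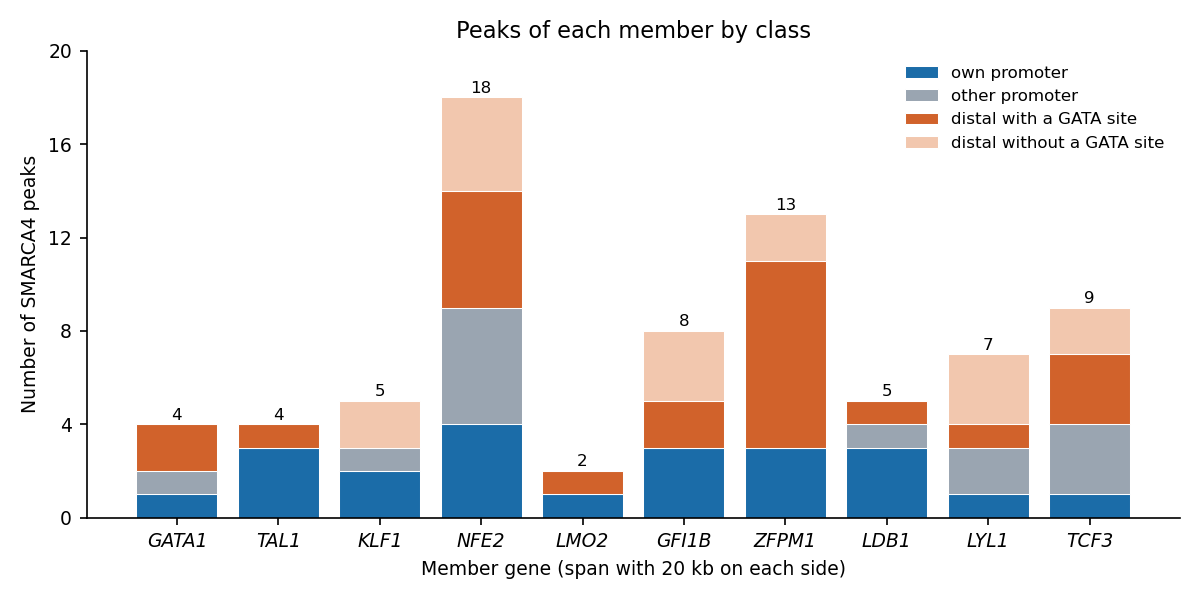
Number of SMARCA4 peaks in the window of each member, split by class and, for distal peaks, by the presence of a GATA site. NFE2 (18 peaks) and ZFPM1 (13) hold the most, and the other members hold between 2 and 9.

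GATA1 itself had 4 peaks. The promoter peak at chrX:48644120-48644763 (644 bp) was centred 0.557 kb upstream of the canonical TSS and contains the stretch printed for this gene. A distal peak of 661 bp at chrX:48641086-48641746 was centred 3.58 kb upstream, in intergenic sequence, with a single GATA site whose middle coincided with the peak centre. The other distal peak was only 118 bp wide, lay 7.94 kb from the TSS just beyond the 3′ end of the gene, and had a composite inside its 400-bp window but outside the peak. The widest peak of the window, 1483 bp, was at the promoter of the neighbouring gene HDAC6, which encodes a cytoplasmic deacetylase, and carried 4 GATA sites and a composite in its centre. Thus the central 400 bp of each of the 4 peaks around GATA1 held at least 1 GATA site, at the narrow downstream peak only outside the peak itself. The upstream and downstream sites are these, on the plus strand of hg19 with the same use of capitals.
GATA1 upstream chrX:48641402-48641431: ccactgattcccTTATCTgcccactcccag
GATA1 downstream chrX:48652998-48653037: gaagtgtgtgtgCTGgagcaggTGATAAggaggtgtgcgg

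ZFPM1, the cofactor of GATA1, had the largest number of distal peaks among the members, 10, of which 8 held a GATA site in the central 400 bp, in 1 of them only outside the peak. All 10 lay inside introns of the gene, from 2.53 kb to 56.0 kb downstream of the canonical TSS, 6 of them with at least 2 GATA sites. Fewer than 8 such peaks were found at 99.7% of coding genes. Its window is also the longest among the members, 124 kb, and its density of 1.05 peaks per 10 kb was close to the median of the members. The intron 1 peak at chr16:88531215-88531642, 11.7 kb from the TSS, held 5 GATA sites, the highest number in the central 400 bp of any member peak. A wider intron 1 peak of 1192 bp, at chr16:88521627-88522818, held 4. Composites occurred in 5 of the ZFPM1 distal peaks. The stretch with 5 sites is printed together with that of the intron 3 peak at chr16:88557921-88558495, in which 3 GATA sites lie within a short distance of each other.
ZFPM1 intron 1 chr16:88531223-88531431: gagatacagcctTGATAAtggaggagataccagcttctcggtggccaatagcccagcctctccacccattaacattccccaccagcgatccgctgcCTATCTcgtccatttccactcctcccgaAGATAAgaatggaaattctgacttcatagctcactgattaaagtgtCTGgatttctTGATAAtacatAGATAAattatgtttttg
ZFPM1 intron 3 chr16:88558229-88558320: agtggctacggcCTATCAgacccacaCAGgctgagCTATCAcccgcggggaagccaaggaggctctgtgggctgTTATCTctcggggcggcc

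Of the 3 promoter peaks of ZFPM1, the ones just upstream of and over the canonical TSS had a GC content of 72.3% and 83.8% in the central 400 bp and no GATA site. The promoter peak in intron 1, 0.715 kb from the TSS, held 3 GATA sites at 66.8% GC, and the 10 distal peaks in introns ranged from 54.8% to 69.8% GC.

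TAL1 had 4 peaks, 3 of them around its annotated starts. The widest, 1416 bp at chr1:47697305-47698720, covered exon 1 and the TSS and held a GATA site 27 bp from its centre. A peak of 41 bp at chr1:47695020-47695060, at exon 2, was the narrowest at a promoter of a member's own. The single distal peak of TAL1, at chr1:47707441-47707701, was centred 9.67 kb upstream of the TSS. Its central 400 bp held 3 GATA sites, 2 of them inside the peak, and an NF-E2-type site (GCTGANTCA). The stretch with the sites inside the peak is printed with the GATA sites and the NF-E2-type site in capitals.
TAL1 upstream chr1:47707502-47707712: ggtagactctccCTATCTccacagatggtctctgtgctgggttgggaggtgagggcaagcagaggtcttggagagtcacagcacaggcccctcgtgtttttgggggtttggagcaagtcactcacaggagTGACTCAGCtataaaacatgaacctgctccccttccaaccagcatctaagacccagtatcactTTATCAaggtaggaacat

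LYL1, the relative of TAL1, had 7 peaks (4 with peaks at most 500 bp apart merged) in a window of 44.1 kb, and peaks covered 13.3% of it. Its promoter peak of 1243 bp, at chr19:13213222-13214464, spans exon 1 and holds the composite printed with the promoters. Of 4 distal peaks only 1 held a GATA site. That peak, at chr19:13207774-13209787, was 2014 bp wide, the widest distal peak of any member, and lay beyond the 3′ end of LYL1 over exon 11 of NFIX. Both peaks at a neighbouring promoter lay on the 5′ side, within 1 kb of starts of TRMT1 and of NACC1.

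TCF3, the E protein partner, had 9 peaks, of which 1 was at its own promoter, 3 at promoters of MBD3 and UQCR11 and 5 distal. The promoter peak was the widest of all member peaks, 2224 bp at chr19:1651386-1653609, over exon 1. Its central 400 bp had a GC content of 87%, the highest among the members, and held no GATA site but a G4 motif, a run of guanines that can fold into a quadruplex. The motif was 4 runs of at least 3 guanines separated by 1 to 7 bases, and the stretch is printed on the minus strand of hg19, 5′ to 3′, with the 4 guanine runs of the match in capitals and further runs in lower case. Of the distal peaks 3 held a GATA site in the central 400 bp, in 1 of them only outside the peak. The peak in intron 1 of UQCR11, at chr19:1601700-1602117 and 50.7 kb from the TCF3 start, held 2 GATA sites and a composite, shown on the plus strand.
TCF3 promoter chr19:1652657-1652697: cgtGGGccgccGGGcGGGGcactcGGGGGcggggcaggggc
TCF3 downstream chr19:1601729-1601835: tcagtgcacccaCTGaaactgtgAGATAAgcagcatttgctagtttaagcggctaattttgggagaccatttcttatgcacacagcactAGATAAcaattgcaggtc

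The genes of the bridging proteins LMO2 and LDB1 had 1 distal peak each, as did TAL1, and the median coding gene had 0. LMO2, the LIM-only protein, had the fewest peaks of the members, a promoter peak of 303 bp without a GATA site and a distal peak of 342 bp at chr11:33920501-33920842. The distal peak lay 7.05 kb upstream of the canonical TSS and held 3 GATA sites in its central 400 bp. It was also the only member peak with a GFI1-type site (AATCANNGC) in its central 400 bp, where 3.24% of all distal peaks held one. A further site of this type lay inside a peak of the TCF3 window, outside its central 400 bp. LDB1, the dimer-forming protein that binds LMO2, had 3 promoter peaks without a GATA site and 1 distal peak. The latter, 623 bp at chr10:103871982-103872604, lay in intron 1, 7.83 kb from the TSS, and held 3 GATA sites, each at most 49 bp from its centre. A further peak was at the promoter of PPRC1. The stretches below carry the sites of both distal peaks on the plus strand, with the GATA sites and the GFI1-type site of LMO2 in capitals.
LMO2 upstream chr11:33920624-33920855: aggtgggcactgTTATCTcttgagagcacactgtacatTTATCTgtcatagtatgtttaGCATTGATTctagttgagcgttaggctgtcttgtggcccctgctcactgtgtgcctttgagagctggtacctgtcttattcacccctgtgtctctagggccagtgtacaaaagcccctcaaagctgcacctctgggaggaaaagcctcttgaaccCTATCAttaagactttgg
LDB1 intron 1 chr10:103872244-103872357: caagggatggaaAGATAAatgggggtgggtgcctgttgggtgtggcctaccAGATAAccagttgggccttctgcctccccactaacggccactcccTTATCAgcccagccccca

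KLF1 was the member without a GATA site in a distal peak. It had 5 peaks in 42.8 kb, covering 10.9% of its window, of which 2 were at its own promoter. The peak at chr19:12997804-12998778 spans the TSS and exon 1 and holds the composite printed with the promoters, at 160 bp from its centre. The other promoter peak, 1878 bp at chr19:12995646-12997523, covered exons 2 and 3, with 4 GATA sites in the whole peak and 0 in its central 400 bp. Of the 2 distal peaks, one lay in MAST1, 19.7 kb from the TSS, and the other 3.39 kb from it, beyond the 3′ end of KLF1. In the latter an NF-E2-type site was present on both strands at overlapping positions, and the capitals in the stretch cover both. The promoter of DNASE2, a nuclease that degrades DNA from expelled erythroblast nuclei, held a further peak, 1131 bp wide.
KLF1 downstream chr19:12994704-12994738: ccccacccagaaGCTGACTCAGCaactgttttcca

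NFE2 had the most peaks of the members, 18, and 99.9% of coding genes had fewer. With peaks at most 500 bp apart merged, NFE2 and ZFPM1 had 10 peaks each. The density and the share of coding genes below were not recomputed for merged peaks. The NFE2 window of 48.9 kb is also gene-dense, and 5 of the 18 peaks were at the shared promoter region of CBX5 and HNRNPA1. That group included the narrowest member peak, of 10 bp. Of the 4 peaks at promoters of NFE2, one at the canonical TSS was shared with COPZ1 and held no GATA site. The other 3 lay in intron 1, near alternative starts, and the one at chr12:54689368-54690169 holds the facing composites printed with the promoters. Of 9 distal peaks 5 held a GATA site, among them both upstream peaks, 3.54 kb and 6.18 kb from the canonical TSS. The nearer upstream peak also held a composite. Those at chr12:54679771-54680122 and chr12:54680308-54681146 lay over exon 11 of HNRNPA1, within 1 kb of a TSS of another transcript type. With the TSSs of all transcripts, NFE2 had 6 distal peaks, 3 of them with a GATA site.
NFE2 upstream chr12:54698272-54698312: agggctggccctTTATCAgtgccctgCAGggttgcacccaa

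GFI1B, the repressor, had 8 peaks. The peak at chr9:135853818-135854327 (510 bp) was centred 9 bp from the canonical TSS, with the composite printed with the promoters. Another of its 3 promoter peaks belonged to an alternative start far upstream that is shared with TSC1. The 5 distal peaks were all on the 3′ side of the canonical TSS, 2 of them in introns and 3 beyond the gene. Only 2 held a GATA site in the central 400 bp, the outermost ones at 20.7 kb and 25.6 kb. The peak of 1042 bp at 25.6 kb, chr9:135879172-135880213, held 3 GATA sites, a composite and an NF-E2-type site at its very centre, the only member peak with all of these in its central 400 bp. An intron 1 peak of 1175 bp, 5.90 kb from the TSS, held 5 GATA sites outside its central 400 bp. The stretch of the outermost peak is shown with the GATA sites, the CTG and the NF-E2-type site in capitals.
GFI1B downstream chr9:135879622-135879845: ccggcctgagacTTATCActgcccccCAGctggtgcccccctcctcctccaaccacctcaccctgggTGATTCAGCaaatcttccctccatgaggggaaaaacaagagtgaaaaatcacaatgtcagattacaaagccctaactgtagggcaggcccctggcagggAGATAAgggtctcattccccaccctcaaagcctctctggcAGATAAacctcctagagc

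Across the members, 24 of the 40 distal peaks (60%, 95% Wilson interval 44.6 to 73.7%) held a GATA site in the central 400 bp. In 3 of the 24 (12.5%, against 8.26% of all distal peaks with a site) the sites lay only outside the peak, at GATA1, ZFPM1 and TCF3. Among all distal peaks the share was 71.4%, inside the members' interval, and the difference was not tested. With flanks of 50 kb and 100 kb the members' share was 55.6% of 63 distal peaks (43.3 to 67.2%) and 47.4% of 97 (37.8 to 57.3%), and 71.4% lies above both intervals. The median GC content was 58.8% in the distal peaks of the members against 46.5% for all distal peaks, and 59.8% in their promoter peaks against 65.8% for all promoter peaks. When all distal peaks were weighted to the GC content of the members, in classes of 5 percentage points and as a comparison added after the values were known, their share was 49.8%, inside the interval at 20 kb. The weighting was not repeated at the wider flanks. Of the distal member peaks, 13 (32.5%) held 2 or more GATA sites, against 42.0% of all distal peaks. For 3 or more sites the count was 8 (20%), against 19.1%. By position, 5 of 7 upstream peaks, 11 of 17 inside the gene and 8 of 16 downstream peaks had a site. AGATAA was the most frequent form, with 22 of the distal sites, followed by TGATAA with 15.

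Against the unweighted shares, the order at promoters was the other way. At the members' GC content the members' share was the higher one in both classes. A GATA site was present in 14 of the 35 promoter peaks of the members (40%, interval 25.6 to 56.4%), against 23.5% of all promoter peaks and 29.0% when these were weighted to the members' GC content. The weighted value lies inside the interval. In 2 of the 14 (14.3%, against 16.4% of all promoter peaks with a site) the site lay only outside the peak, both at the promoters of CBX5 and HNRNPA1 in the NFE2 window. With flanks of 50 kb and 100 kb the members' share was 34.0% (22.7 to 47.4%) and 30.4% (20.8 to 42.1%), and 23.5% lies inside both intervals. Counted by gene, 7 of the 10 members had an own promoter peak with a GATA site, against 13.5% of coding genes, and LMO2, LDB1 and TCF3 had none. The 13.5% also counts genes without an own promoter peak. Of the 9268 coding genes with one, 2722 had one with a GATA site. The number of own promoter peaks per gene was not matched. In the central 200 bp in place of 400 bp the share of promoter peaks with a site was 20%, against 14.2% of all promoter peaks.

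The composite of CTG and a GATA site was found in 10 of the 40 distal peaks (25%, interval 14.2 to 40.2%) and in 6 of the 35 promoter peaks (17.1%, interval 8.10 to 32.7%). The shares over all peaks were 18.3% and 3.0%, and 11.6% and 3.78% at the members' GC content. For promoters both values lie below the interval, and for distal peaks the weighted value does. The differences were not tested and few peaks carry the counts. Of the 6 promoter peaks 5 were at promoters of the members and 1 at that of HDAC6, and of the 10 distal peaks 5 were at ZFPM1. In 7 of the 10 members a peak of either class held a composite, against 16.3% of coding genes. Of the 13685 coding genes with any peak in the window, 3284 had one with a composite. The median member had 6 peaks and the median coding gene 2, and the number of peaks was not matched. TAL1, LMO2 and LDB1, which encode parts of the complex known for this sequence, were the members without one in these windows.

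**Figure D3:**
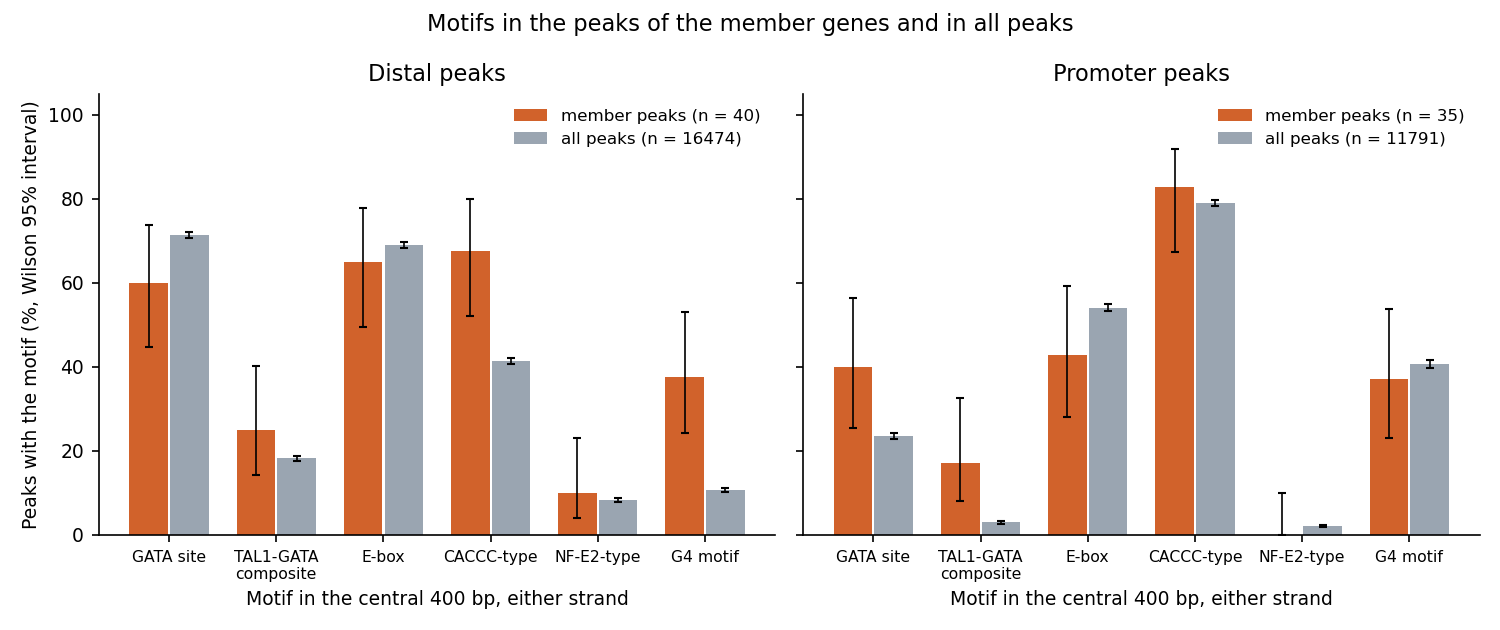
Share of peaks with each motif in the central 400 bp, for the 40 distal and 35 promoter peaks of the members and for all peaks of each class, with Wilson 95% intervals. The GATA site is in 60% of the members' distal peaks and 71.4% of all distal peaks, and in 40% and 23.5% of promoter peaks.

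The elements of the other members' own binding were counted in the same windows. The CACCC-type sequence bound by KLF1 (CCNCNCCC) was present in 67.5% of the distal member peaks, 41.3% of all distal peaks and 65.2% at the members' GC content. At promoters the values were 82.9%, 79.0% and 74.6%. The E-box (CAGNTG), the element of TAL1, LYL1 and TCF3, was in 65% of distal member peaks against 69.0%, and in 42.9% of promoter member peaks against 54.1%. The NF-E2-type site occurred in 4 of 40 distal member peaks, at TAL1, KLF1, NFE2 and GFI1B (10%, against 8.24%). It occurred in 0 of 35 promoter peaks, which allows a share of up to 8.57% (3 counts of the total), against 252 of all 11791 promoter peaks. These sequences can overlap one another and, except for the CACCC type in distal peaks, their shares over all peaks lay inside the members' intervals.

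A G4 motif was present in 15 of the 40 distal member peaks (37.5%, interval 24.2 to 53.0%), against 10.7% of all distal peaks. Weighted to the members' GC content the share of all distal peaks was 24.7%, inside the interval. At promoters the shares were 37.1% for the members, 40.7% for all peaks and 33.5% for all peaks at the members' GC content, both inside the interval of 23.2 to 53.7%. ZFPM1 had 6 peaks with the motif, TCF3 had 5 and LMO2 had 0. The part of GC content in these differences was not tested beyond the weighting.

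The median width of the member peaks was 493 bp (95% interval 366 to 575 bp) against 368 bp over all peaks. The medians were 568 bp (334 to 802 bp) against 421 bp at promoters and 430 bp (342 to 558 bp) against 341 bp for distal peaks. The values over all peaks and over all promoter peaks lie inside the members' intervals, and that over all distal peaks 1 bp below. A width of at least 1000 bp was reached by 11 of the 75 (14.7%), compared with 6.78% of all peaks. The widest were the TCF3 promoter peak, the LYL1 peak over NFIX and the KLF1 peak over exons 2 and 3. Peaks of under 200 bp made up 16% of the member peaks and 16.4% of all, with 8 of the 35 promoter peaks (22.9%, against 15.7%) and 4 of the 40 distal peaks (10%, against 16.9%). Another peak lay at most 500 bp away for 32 of the 75 (42.7%), against 25.9% of all peaks. These made 19 pairs of adjacent member peaks, and 4 pairs shared part of their 400-bp windows.

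**Figure D4:**
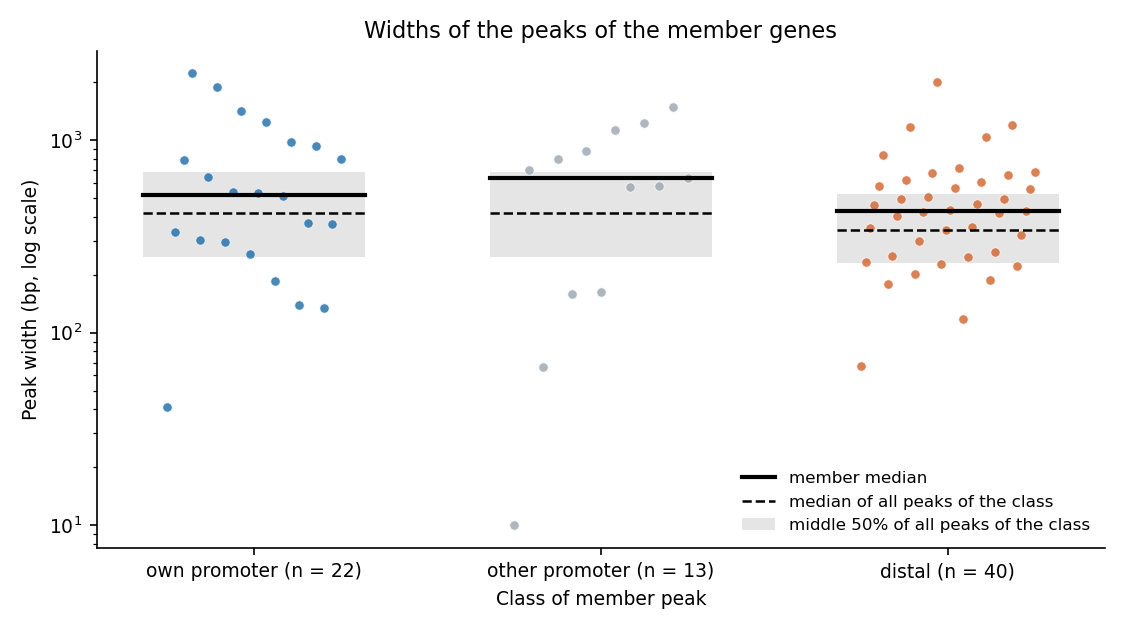
Width of each member peak in bp on a log scale, by class, with the member median (solid line) and the median and middle 50% of all promoter or all distal peaks (dashed line and band). The medians are 521.5 bp for own promoter, 633 bp for other promoter and 430 bp for distal peaks, against 421 bp for all promoter and 341 bp for all distal peaks.

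Few peaks lay near the edge of a window. The TCF3 peak furthest upstream lay 0.02 kb inside the 20-kb limit, and the next one 3.17 kb beyond it. The TCF3 peak furthest downstream, a distal peak counted with a GATA site, lay 1.48 kb inside the limit. A distal KLF1 peak lay 2.94 kb inside it. The nearest peaks outside the limit at TAL1, NFE2 and ZFPM1 were 3.08, 3.40 and 3.83 kb beyond it. With the gene span alone and no flank, GATA1 and LMO2 had 0 peaks, because all their peaks lie outside the annotated span. The number of members with a distal peak with a GATA site was then 4 in place of 9, against 18.6% of coding genes in place of 35.8%.

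Of 20 paralogs of the members, 10 (50%, against 46.0% of coding genes) had an own promoter peak and 13 (65%, against 35.8%) a distal peak with a GATA site, with a median of 1.5 peaks. The difference from the members was not tested. GATA2, the relative that precedes GATA1 in blood progenitors, had 7 peaks, 3 at its own promoter and 4 distal ones with a GATA site, at 1.30 peaks per 10 kb against 0.837 at GATA1. A count of 4 distal peaks with a GATA site was also found at NFE2L3 and TAL2, and ZFPM2 had 20 in a window of 1254 kb. GATA3, GFI1, LDB2 and LMO3 had 0 peaks.

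Among 25 cofactors and partners, 22 had an own promoter peak and 17 a distal peak with a GATA site, led by FOXO3 and RUNX1 with 8 each and SSBP3 with 5. The RUNX1 window is 1257 kb long and held 0.0875 peaks per 10 kb, below the 0.182 of the median coding gene, and the FOXO3 window is 165 kb. FLI1, a factor of the megakaryocyte branch, had 0 peaks. Of 26 erythroid target genes, 22 had an own promoter peak and 21 a distal peak with a GATA site, with 5 at the gamma-globin gene HBG2 and 4 each at HBE1, ANK1, GYPC, TFRC, SLC4A1 and FECH. Window lengths among these ran from 59.8 kb at SLC4A1 to 292 kb at HBG2. The HBG2 and HBE1 windows overlap, so the same peak could be counted for both. Lymphoid transcription factors had an own promoter peak in 2 of 14 genes and a distal peak with a GATA site in 3, LEF1, FOXP3 and TCF7. Of 18 factors of non-blood tissues, 17 had no peak, and POU5F1 had 3 peaks, none at its own promoter. The differences between these lists and the members were not tested.

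**Figure D5:**
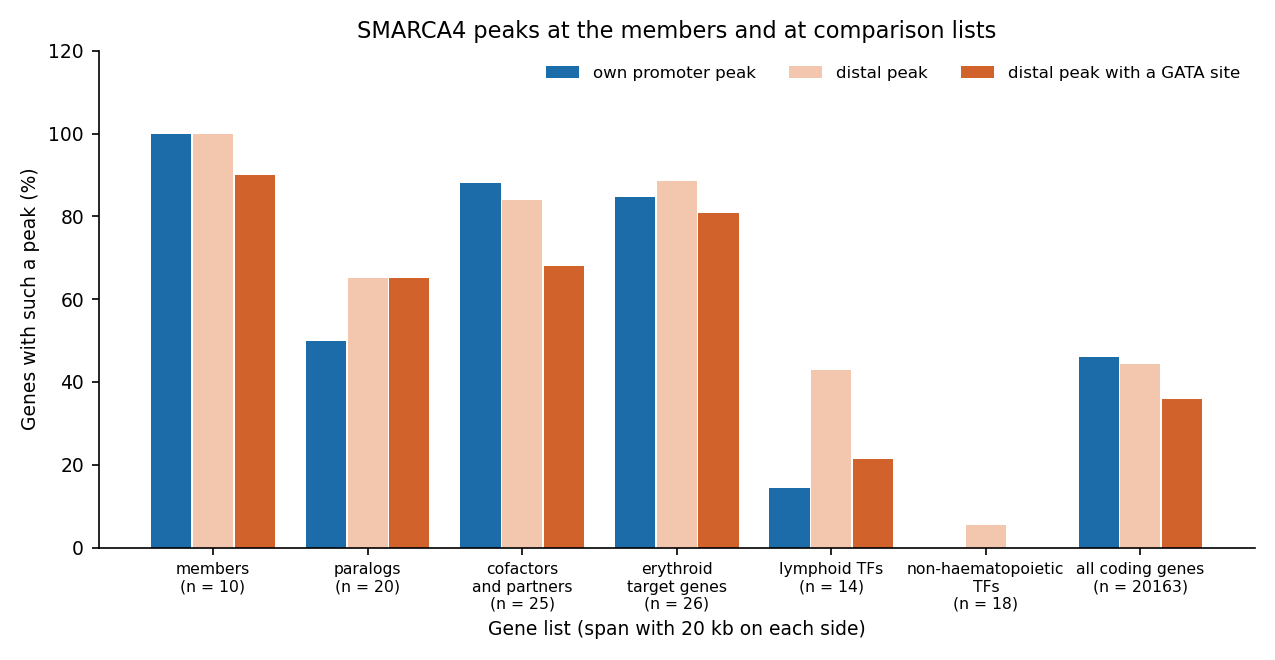
Share of genes in each list with an own promoter peak, a distal peak and a distal peak with a GATA site in the span extended by 20 kb. The members reach 100%, 100% and 90%, the 26 erythroid target genes 84.6%, 88.5% and 80.8%, and all 20163 coding genes 46.0%, 44.3% and 35.8%.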

How the data were processed

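The deposited file gave the positions (chromosome, start and end in bp) of regions in at least 2 of 3 SMARCA4 ChIP replicates, with no score. Per the methods of the study, the authors aligned reads to hg19 with BWA, removed duplicates and called peaks per replicate with MACS2 against input. Read depth was not used here. Peaks were set beside GENCODE 44lift37 and the GRCh37 sequence, the assembly behind hg19. A peak within 1 kb of a coding TSS was a promoter peak, own before other, and all others were distal. Motifs were counted on both strands in the 400 bp around each peak centre, with Python 3.11.15, pandas 2.3.3, pysam 0.24.0, statsmodels 0.14.6 and matplotlib 3.10.9. Shares carry 95% Wilson intervals and median widths 95% intervals from binomial ranks. On simulated data 0 of 4000 classes were wrong and 0 of 400 planted motifs were missed.

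The members and the comparison lists were chosen with earlier results of these data known. Named genes were the members, genes whose coding TSS lay within 1 kb of a member peak, and from each list the 3 with most distal GATA peaks (ties included), plus genes without a peak where 5 or fewer. MAST1, NFIX and TAL2 were named after their values were seen. Alternatives were other flanks, widths, merging, overlap, TSS sets, promoter definitions, motif windows and motif forms, and leaving out members. The RefSeq promoter table, on another assembly, was not used here.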

Additional observations from a re-analysis of the deposited data

How the results depend on the processing

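Under 174 alternative values, 162 stayed within the 95% interval of the value, or within 1.5 times a count, and 12 moved further. The 162 include counts with a single member left out, which could not pass that limit. The number of member peaks, 75 with a flank of 20 kb, was 35 in the gene span alone, 116 with 50 kb and 166 with 100 kb. The number of distal member peaks, 40, was 17, 63 and 97 under the same settings, which follows from the window lengths. In the span alone, members with a distal peak with a GATA site were 4 in place of 9 (all coding genes 18.6% in place of 35.8%), and members with any distal peak 6 in place of 10 (22.9% in place of 44.3%). With promoters of 2.5 kb, LDB1 had 0 distal peaks, and 9 members had one against 39.0% of coding genes. Without NFE2 and ZFPM1 together, a setting chosen after seeing the data, 44 peaks and 21 distal peaks were left. Counting the letters GATA alone raised the share of peaks with a site to 82.5% of distal and 62.9% of promoter member peaks, against 85.6% and 47.5% of all peaks. In the central 200 bp the promoter share was 20%.

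Leaving out each member in turn was run for 8 results and moved none further than these limits. They included the numbers and median widths of member and of distal peaks and the GATA shares of both classes. The others were the members with an own promoter peak and the members with a distal peak with a GATA site. The counts of members with any distal peak, or with a GATA site at an own promoter, were not among them. Composites, other motifs, GC content, density and coverage were not rerun. An own promoter peak was found in at least 8 of the members in every setting. The count was 8 in the span alone, against 42.6% of coding genes, and 10 with promoters of 2.5 kb, against 47.9%. No paired analysis was possible because the list pools the replicates and holds no value for any of them. The number of regions limits precision, and depth per region is unknown.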

Other observations

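Peaks further from the members than 20 kb were also present. At TAL1, a distal peak of 2364 bp at chr1:47645770-47648133 (hg19) lay 50.9 kb downstream of the canonical TSS and held 1 GATA site and 1 composite. It was wider than each of the 75 peaks inside the windows, and an erythroid enhancer of TAL1 is known at about this distance downstream. At LMO2, 4 distal peaks lay between 45.4 kb and 65.5 kb upstream of the TSS, 3 of them with a GATA site, compared with 1 distal peak inside the window. At LYL1, a distal peak of 1013 bp at 32.9 kb downstream held 3 GATA sites and 2 composites. With a flank of 100 kb, NFE2 had 41 peaks and KLF1 33, whereas GATA1 and LMO2 had 6 each. Over all members at this flank, 46 of 97 distal peaks (47.4%) held a GATA site. The share was 60% at 20 kb and 71.4% over all distal peaks. KLF1 had 15 distal peaks at this flank, 4 of them with a site, and NFE2 had 27, 11 of them with a site.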
